A study of Mus musculus with 2 samples.

Results

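The erythroid miRNAs Mir451a, Mir451b, Mir144 and Mir486 are 4 of the 2202 annotated mouse miRNA genes listed in these data. Of all 2202, 1458 had no reads on the gene's own strand in either library, Mir451b among them. The members were taken by their GENCODE M21 gene symbols. They were read in microRNA sequencing libraries from whole hearts of male B6CASTF1/J mice (the first-generation cross of C57BL/6J and CAST/EiJ), aged 4 days. The study has a single group of 2 libraries, labelled biological replicates 1 and 2 and described as males 03 and 04 under a shared donor identifier, with no treatment and no second condition. If they are not separate animals, the spread between them is technical. The counts are reads on the gene's own strand (sense counts), given as CPM, the count per 1000000 sense counts of its library, and ± is the SD over the libraries (n = 2).

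Mir451a and Mir144 are made from one primary transcript that the red cell factor Gata1 switches on, and loss of the pair in mice impairs late red cell maturation and the defence of red cells against oxidants. miR-451a is the classic miRNA that bypasses Dicer: its short hairpin is cut by the slicer Ago2 and then trimmed. miR-486 comes from an intron of Ank1, the ankyrin gene of the red cell membrane skeleton, and it is abundant in skeletal and heart muscle as well as in red cells. A count for Mir486 in a heart is therefore not a count of red cells alone, and these data cannot tell the sources apart. In a bulk tissue, fewer cells of a type and less of an RNA per cell cannot be told apart either.

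The mature sequences are shown because the seed (bases 2 to 8, in capitals) is what a miRNA pairs to its targets with. The members with a sequence here turn out to have no seed in common, and that of Mir486 was not compared. The sequences are from RefSeq on GRCm38.p6, the same assembly as mm10, and 3 of the 4 members matched that table. All lie on chromosome 11.
miR-451a (Mir451a, chr11:78073186-78073207, plus strand): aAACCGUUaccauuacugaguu
miR-144-3p (Mir144, chr11:78073047-78073066, plus strand): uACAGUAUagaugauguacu
miR-144-5p (Mir144, chr11:78073010-78073032, plus strand): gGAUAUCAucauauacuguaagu
miR-451b (Mir451b, chr11:78073219-78073239, minus strand): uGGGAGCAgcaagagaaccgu
None of these 4 seeds was found in another gene's entry among the 1738 mature miRNAs of the table. Mir486 is named here without its sequence.

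The hairpins show how differently the neighbours are built. Bases of the annotated mature miRNAs are in capitals.
Mir451a (chr11:78073170-78073241, plus strand): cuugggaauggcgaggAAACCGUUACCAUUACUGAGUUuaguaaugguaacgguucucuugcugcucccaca
Mir144 (chr11:78073005-78073070, plus strand): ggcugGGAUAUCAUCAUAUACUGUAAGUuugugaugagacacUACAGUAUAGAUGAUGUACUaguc
The predicted fold (RNAfold) of the 72-base Mir451a hairpin had 30 base pairs, a free energy of -43.3 kcal/mol and a terminal loop of 4 bases at positions 35 to 38. Mature miR-451a spans positions 17 to 38 and so takes in all 4 loop bases. In the 66-base Mir144 hairpin, with 27 base pairs and -28.6 kcal/mol, the loop lies at positions 31 to 36. Neither arm of miR-144, at positions 6 to 28 and 43 to 62, reaches into that loop. A count for Mir144 adds its arms together, and the tables do not say how the reads divide between them.

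The 3 hairpins on chromosome 11 lie outside annotated host genes. Mir144 and Mir451a follow each other on the plus strand with 99 bases between them. The nearest protein-coding gene, Eral1, lies on the minus strand, and its end, not its start, is 135 bases past Mir451a. Mir451b is annotated on the minus strand over the very same 72 bases as Mir451a. Mir486 (chr8:23142555-23142682, plus strand) lies in an intron of Ank1 on the same strand. Its partner Mir3107 (chr8:23142573-23142662, minus strand), for which RefSeq also gives the name mir-486b, lies wholly within it on the opposite strand. It is no member and was looked at because all 90 of its bases overlap Mir486.

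**Figure D1:**
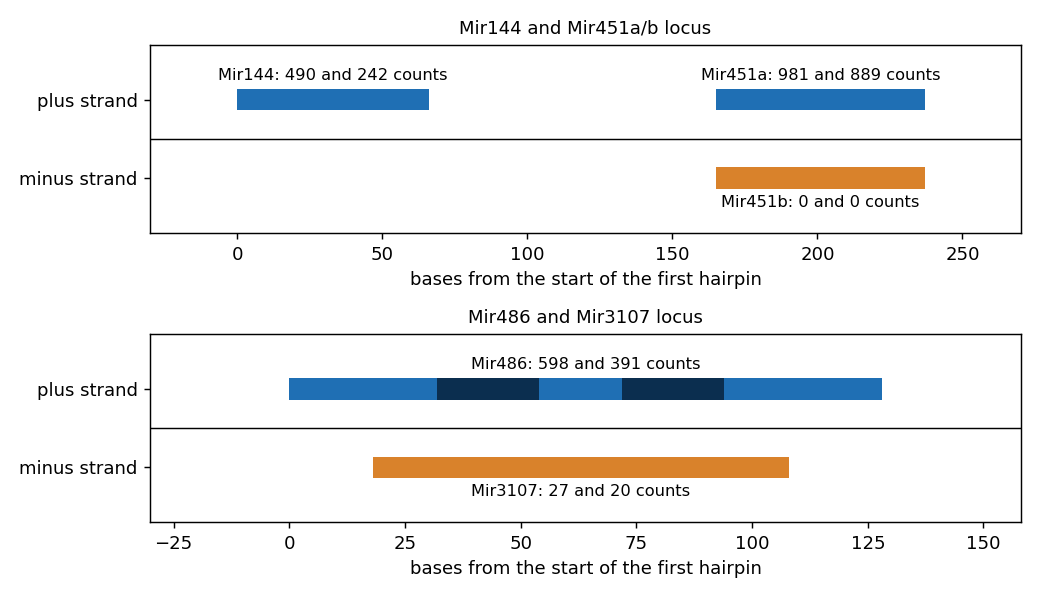
Maps of the 2 loci to scale, in bases from the start of the first hairpin, with plus-strand hairpins above the line, minus-strand hairpins below it and the sense counts of replicates 1 and 2 beside each name. The dark stretches mark the 22-base runs that Mir486 shares with Mir3107, and all reads over the Mir451a hairpin are on the plus strand.

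The strand of the reads separated each pair. Mir451a had 981 sense counts in replicate 1 and 889 in replicate 2, while Mir451b had 0 in each. With 0 of 981 and 0 of 889 reads on the minus strand, a minus-strand share of up to 0.306% and 0.337% (3 counts) is still allowed. Over the Mir486 hairpin, 27 reads in replicate 1 and 20 in replicate 2 were on the minus strand and are the counts of Mir3107. They made up 4.32% (95% Wilson interval 2.99 to 6.21) and 4.87% (3.17 to 7.40) of the reads at that place, so both libraries had a small signal there and their intervals overlap. Mir144, which no other annotated miRNA gene overlaps, had no read on the opposite strand in either library. In the counts made without regard to strand, Mir451a, Mir451b, Mir486 and Mir3107 all stood at 0 in both libraries, because reads over 2 overlapping genes are set aside there as ambiguous. Mir144 alone kept its 490 and 242 counts.

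Sequence shared between hairpins limits what the Mir486 count can show. A search for 20-base windows held in common with any other annotated miRNA hairpin found none for Mir451a, Mir451b or Mir144. Mir486 shares 6 windows of 109 with a single hairpin, Mir3107. They form 2 runs of 22 bases, at positions 33 to 54 and 73 to 94 of the Mir486 hairpin. A read that lies wholly inside such a run matches both strands of the locus equally well, and reads that match several places are kept out of the gene counts. The Mir486 and Mir3107 counts are thus lower limits, and how many reads were lost in this way cannot be read from the tables. Levels, shares and ratios that involve Mir486 hold for uniquely assigned reads only. A ratio with Mir486 below the line is an upper limit, and the ratio of Mir486 to Mir3107 is bounded on neither side. Between Mir451a and Mir451b the longest identical run was 16 bases, shorter than the 22 bases of mature miR-451a.

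Mir451a was the most abundant member by uniquely assigned reads. Its level was 233.8 CPM in both libraries, with exact Poisson 95% intervals of 219 to 249 and 219 to 250. This placed it 134th and 132nd of all miRNA genes. Mir486 had 598 and 391 counts, or 142 and 103 CPM in replicates 1 and 2, with intervals of 131 to 154 and 92.9 to 114. Mir144 had 117 and 63.7 CPM, with intervals of 107 to 128 and 55.9 to 72.2. For Mir486 and Mir144 replicate 1 was the higher library and the intervals of the libraries did not overlap, whereas for Mir451a they nearly coincided. Mir451b, at 0, may hold up to 0.715 CPM in replicate 1 and 0.789 CPM in replicate 2, the level of 3 counts. These intervals cover counting error only, since reads of an amplified library are not independent molecules.

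**Figure D2:**
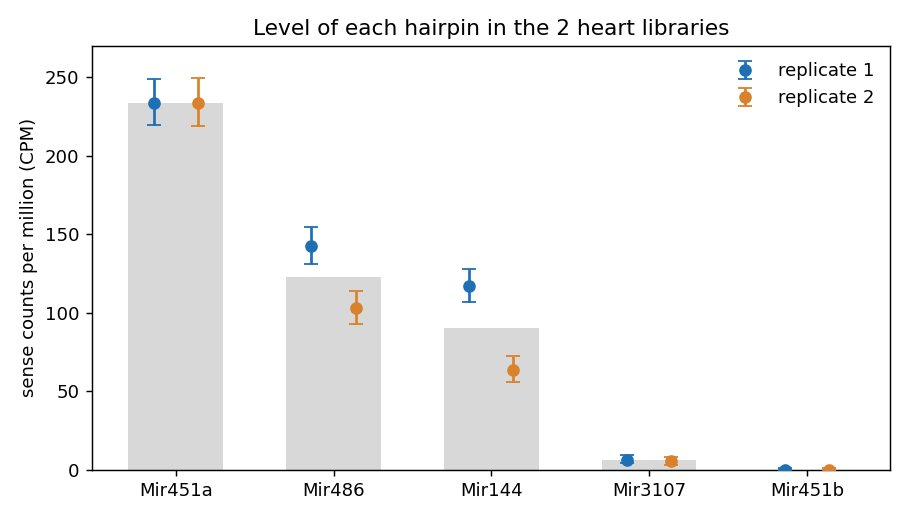
Level of each hairpin in CPM: grey bars are means over the 2 libraries and start at 0, points are the libraries, and whiskers are exact Poisson 95% intervals. Mir451a stands at 233.8 CPM in both libraries, while Mir486 and Mir144 are lower in replicate 2 than in replicate 1.

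By mean level the order was Mir451a at 233.8 ± 0.06 CPM, Mir486 at 123 ± 28.0 CPM, Mir144 at 90.2 ± 37.6 CPM and Mir451b at 0. By uniquely assigned reads Mir451a stood above the others by more than their spread, which does not cover the reads lost to Mir486, so its place above Mir486 is not settled. The means of Mir486 and Mir144 differed by less than the SD of Mir144, but within each library Mir486 had more uniquely assigned reads, by 1.22 and 1.62 times. The order of that pair depended on how length is handled, since the annotated Mir486 hairpin has 128 bases. Per hairpin base, Mir451a had 3.25 ± 0.00077 CPM, Mir144 1.37 ± 0.57 and Mir486 0.958 ± 0.219, so Mir144 then stood above Mir486. The Mir486 value is again a lower limit, so that order is not settled either. A read of a mature miRNA covers only about one arm of a hairpin, so the annotated length is a rough scale here. Together the members held 2069 counts in replicate 1 and 1522 in replicate 2. That was 0.0493% (95% Wilson interval 0.0472 to 0.0515) and 0.0400% (0.0381 to 0.0421) of the 4196577 and 3801738 sense counts. Both leave out multi-mapped reads. Within this small pool of uniquely assigned reads, Mir451a made up 47.4% (45.3 to 49.6) of the members' counts in replicate 1 and 58.4% (55.9 to 60.9) in replicate 2. Mir144 made up 23.7% (21.9 to 25.6) and 15.9% (14.1 to 17.8), so neither pair of intervals overlapped, and as shares of a pool that lacks Mir486 reads these values are upper limits.

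**Figure D3:**
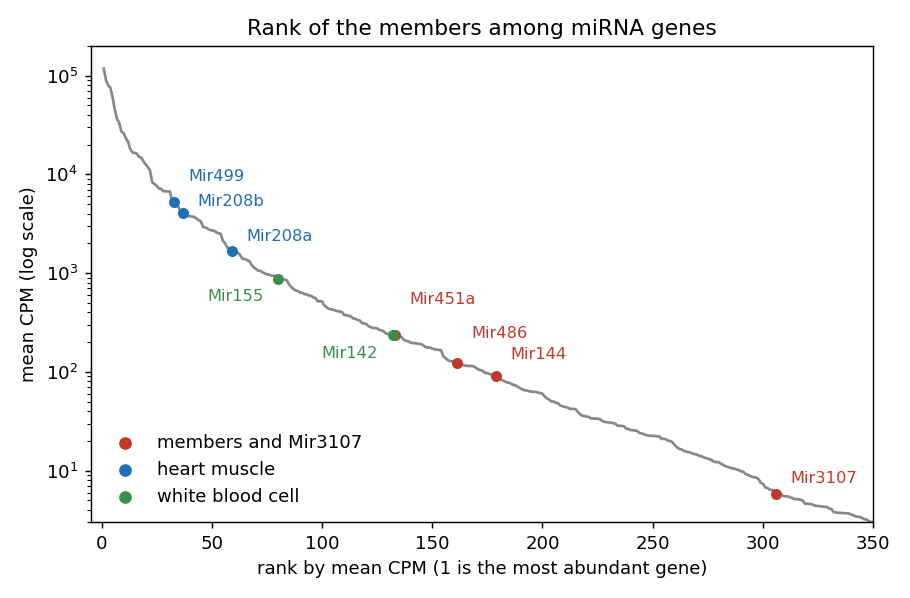
Mean CPM (log scale) against rank for the most abundant miRNA genes, with the detected members and Mir3107 in red, 3 heart muscle miRNAs in blue and 2 white blood cell miRNAs in green. Mir451a, at rank 133, lies beside Mir142 at rank 132, well below Mir499 at rank 33.

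The miRNAs encoded in myosin genes, which mark heart muscle, were abundant. Mir499 had 5794 and 4633 CPM, Mir208b 5169 and 2965 CPM, and Mir208a 2091 and 1259 CPM in replicates 1 and 2. All lay far above the members in each library by uniquely assigned reads. As the Mir486 count is a lower limit, how far they lie above Mir486 is not settled. The wider striated muscle list, which Mir486 might be read with, had summed levels of 13129 and 8964 CPM, of which members with near-identical copies such as Mir1a-2 and Mir133a-1 (43.8 ± 15.1 and 5.12 ± 3.54 CPM) give only lower limits. All 10 of its genes had reads in at least one library.

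The ratio of Mir451a to Mir144 within a library does not depend on how libraries are scaled. It was 2.00 in replicate 1 (exact 95% interval 1.79 to 2.24) and 3.67 in replicate 2 (3.18 to 4.25), so the intervals did not overlap although the hairpins are neighbours on one transcript. The ratio of Mir451a to Mir486 was 1.64 (1.48 to 1.82) and 2.27 (2.02 to 2.57), again without overlap, and these are upper limits. The ratio of Mir486 to Mir144 was 1.22 (1.08 to 1.38) and 1.62 (1.37 to 1.90), which just overlap, and these are lower limits. All 3 ratios of uniquely assigned reads were above 1 in both libraries, but that of Mir451a to Mir486, an upper limit, may lie lower. As log2 values they came to 1.44 ± 0.62, 0.95 ± 0.33 and 0.49 ± 0.29.

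**Figure D4:**
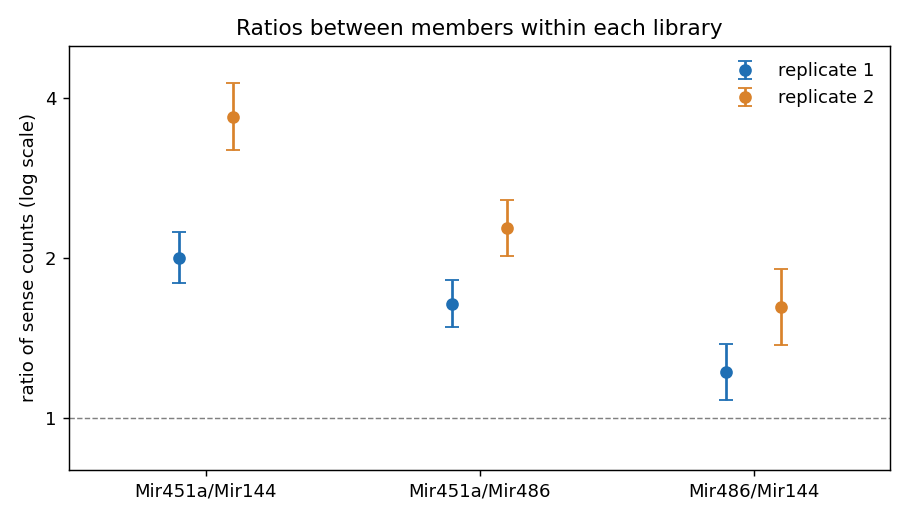
Ratios of sense counts between members within each library, on a log scale, with exact 95% intervals and a dashed line at 1. Mir451a exceeds Mir144 by 2.00 times in replicate 1 and 3.67 times in replicate 2, and the intervals of the libraries are apart.

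An unequal shift between close neighbours was common in these libraries. Among miRNA genes with a mean of at least 100 counts, 52 pairs of consecutive hairpins lay on the same strand within 1 kb of each other. The log2 ratio of replicate 2 to replicate 1 differed between the partners of such a pair by a median of 0.73, and by 0.87 for Mir144 and Mir451a. A wider difference was seen in 22 of the 52 pairs, for example Mir15b and Mir16-2 at 2.12. Mir16-2 shares a window with another hairpin, as do Mir16-1, Mir24-1, Mir24-2 and Mir92-1 of other wider pairs, so their counts are uncertain. Shared windows were not looked at for genes outside the members and the lists below, so more of these pairs may be affected. Pairs of one cluster share their transcript, so they are not independent of each other.

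With libraries scaled to their sense totals, Mir451a differed less between the libraries than any other tested gene, a place that depends on this scaling. A gene was tested if it had 10 or more counts over both libraries, which 441 genes and 3 of the 4 members did. Its log2 ratio of CPM + 1, replicate 2 over replicate 1, was 0.00, and each of the other 440 tested genes had a larger ratio in one direction or the other. Mir144 had a log2 ratio of -0.87, its level in replicate 2 being 54.5% of that in replicate 1. Mir486 had -0.47, with 72.2% of its level. The median over all tested genes was -0.26, and the median absolute ratio was 0.50.

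By Fisher's exact test on each gene against the rest of its library (two-sided, Benjamini-Hochberg adjustment over all 441 tested genes), Mir144 and Mir486 were lower in replicate 2, with adjusted p = 1.02e-14 and 1.3e-06, and Mir451a was not called, with adjusted p = 1. The test called 56.9% of all tested genes, 20.4% as higher and 36.5% as lower in replicate 2. It called 88 of the 107 genes (82.2%) with a mean level between 45.1 and 468 CPM, within a factor of 2 of the detected members' range. A count of 2 of 3 members is therefore not a result about the members: at this depth most genes of such a level were called. The test compares 2 libraries and not conditions, and counting error is its only error. Scaling by TMM (trimmed mean of M-values) instead raised log2 ratios by 0.30, or by less at low levels, where the pseudocount weighs more. Mir451a then was called as higher in replicate 2, with a log2 ratio of 0.30 and adjusted p = 1.53e-05 (Fisher's exact test). Mir486 was no longer called, with -0.16 and adjusted p = 0.131, and Mir144 remained lower, with -0.56 and adjusted p = 1.01e-06. With the spread between the libraries taken into account (edgeR's exact test, biological coefficient of variation 0.381), no member was called, each with adjusted p = 1. That variation was estimated from these same 2 libraries taken as one group, so the difference tested is part of its own error, few calls are built in, and the result says nothing of whether the members differ.

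**Figure D5:**
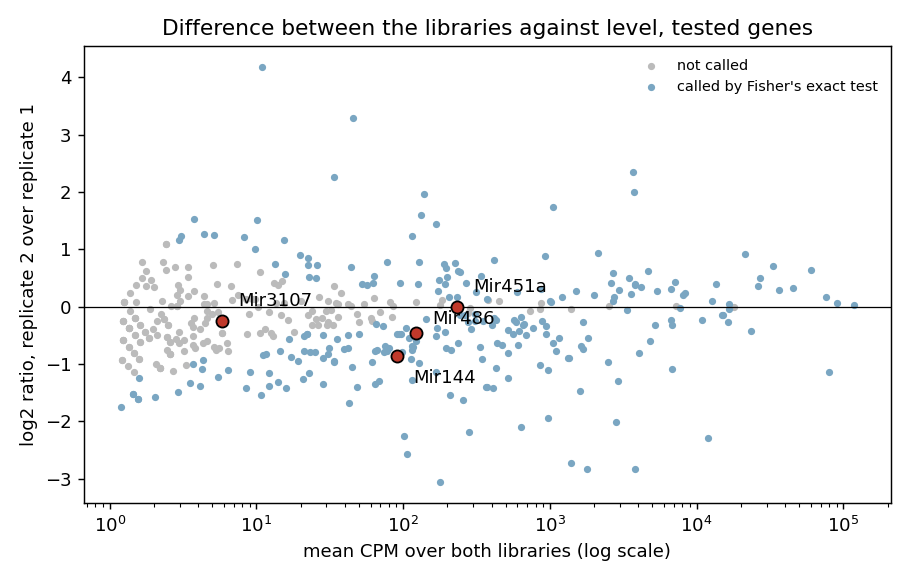
Log2 ratio of replicate 2 over replicate 1 against mean CPM (log scale) for the 441 tested genes, blue where Fisher's exact test called a gene and grey where it did not, with the members and Mir3107 in red. Mir451a lies on the line at 0, and Mir144 at -0.87 and Mir486 at -0.47 lie among many called genes of like level.

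Genes whose levels were most like a member's were found by distance in log2(CPM + 1) over the 2 libraries, which is a likeness of level over 2 points and no more. Nearest to Mir451a were Mir125b-2 with 233 and 224 CPM, Mir874 with 217 and 245 CPM, and Mir671 with 257 and 232 CPM. Nearest to Mir144 were Mir493, with 124 and 71.3 CPM, Mir1843b and Mir300, and nearest to Mir486 were Mir1843a, with 148 and 97.1 CPM, Mir186 and Mir345. No member was among the 3 nearest genes of another.

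Other miRNAs known to be abundant in red blood cells ranged from far above the members to below them. The list of 15 such genes had summed levels of 28704 and 24866 CPM, led by Mir191, Mir93, Mir107 and Mir15b, while Mir183, Mir92-2, Mir182, Mir363 and Mir96 had mean levels of 23.3, 22.7, 22.2, 2.68 and 0.63 CPM, below every detected member. Most of them are made in many cell types. Fisher's exact test, adjusted over all genes, called 2 of its 14 tested genes as higher and 9 as lower in replicate 2. Of all tested genes it called 20.4% as higher and 36.5% as lower, and with TMM scaling that balance turned to 135 higher and 106 lower, so the direction counts of this and the next lists depend on the scaling. The list's median log2 ratio was -0.74, beside -0.26 for all tested genes. Mir15b, Mir106b, Mir15a and Mir25 had log2 ratios of -2.01, -1.94, -1.47 and -1.42. Mir191, close to equal like Mir451a, had 7184 and 7235 CPM. Of the list, 5 hairpins share a 20-base window with another, namely Mir16-1, Mir16-2, Mir92-1, Mir92-2 and Mir107. Their counts are uncertain, so the place of Mir92-2 below every detected member is not settled.

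The miRNAs that decline as red cells mature were present at summed levels of 1827 and 1840 CPM. Fisher's exact test called 4 of the 7 as higher and 2 as lower in replicate 2, beside 20.4% and 36.5% of all tested genes, and the median log2 ratio was 0.39. Mir222 was not called. Mir155, Mir150 and Mir223 are on this list and also on the white blood cell list below. Mir150 and Mir223 are on the platelet list as well, so the calls and medians of these lists are not independent. Mir221, which restrains the stem cell factor receptor Kit in red cell precursors, had 275 and 399 CPM, and its cluster partner Mir222 had 43.8 and 44.5 CPM. Mir24-1 and Mir24-2 share windows with each other and are uncertain.

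The white blood cell miRNAs, 8 of 9 listed symbols being found, had summed levels of 4373 and 5391 CPM. The uniquely assigned reads of the members summed to 493 and 400 CPM, but these sums do not compare amounts of cells. Mir342 alone gave 2154 and 3251 CPM of the white blood cell sum in replicates 1 and 2. Which cells its reads came from was not tested. Mir146 and Mir146b share a window and are uncertain. Mir342, Mir155, Mir146 and Mir150 led, and Mir142, which is made across blood cells other than mature red cells, had 185 and 287 CPM. The test called 4 of 6 as higher and the other 2 as lower in replicate 2, beside 20.4% and 36.5% of all tested genes. Of all genes at the members' levels 82.2% were called in either direction, but Mir342, Mir155 and Mir146 lie above those levels. The median log2 ratio of the white blood cell list was 0.40. Mir223, a miRNA of myeloid cells and platelets, had 110 and 144 CPM. The platelet and megakaryocyte list had 123990 and 63185 CPM, most of it from Mir126a (109199 and 49330 CPM), which endothelium also makes. Its 6 genes gave 2 calls in each direction, beside 20.4% higher and 36.5% lower of all tested genes, with a median log2 ratio of 0.01. Those called as higher were Mir150 and Mir223 again, and Mir28a shares a window with another hairpin. On the striated muscle list, 2 of 9 tested genes were called as higher and 3 as lower, a total near the 56.9% of all tested genes, and the median was -0.20. Among the members none was called as higher and 2 of 3 tested as lower, with a median of -0.47. The part of blood in these differences was not tested.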

How the data were processed

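The authors deposited whole-number counts of reads for each miRNA gene, without normalization. The genome was mm10 and the annotation GENCODE M21, as the accompanying notes state. The aligner is not given in the sources used here. Columns were assigned to strands from the values. Mir486 and Mir3107, which overlap on opposite strands, exchange their counts between the last columns, which shows only that these hold opposite strands. Mir144, which no other annotated miRNA gene overlaps, had 490 and 242 counts in the column taken as sense and 0 in the other. The tables account for 9591115 and 9293203 reads in replicates 1 and 2, of which 43.8% and 40.9% were sense counts, 38.1% and 42.3% multi-mapped, 14.1% and 13.1% unmapped and 4.01% and 3.70% outside miRNA genes. Such lines were kept out of totals and tests. One read was worth 0.238 and 0.263 CPM. Loss of CAST/EiJ reads that differ from the reference was not tested.

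CPM used the total of sense counts, and log2 ratios a pseudocount of 1 CPM. Tests used SciPy 1.17.1, edgeR 4.0.16 and DESeq2 1.42.0 (scaling only), and folds RNAfold 2.7.2. edgeR's common dispersion came from 344 genes that reached 10 counts in both libraries. The per-gene test was tested first on simulated data with counting error only. Such data cannot show how it handles the wider spread between these libraries. All 2202 gene IDs matched GENCODE symbols. The genes named are the members, their overlapping or near (10 kb) miRNA genes, hairpins sharing a window, the 3 nearest in level and up to 4 leaders of each list. The pairs of neighbouring hairpins and the genes singled out beyond that were chosen after their values were seen. Members and lists were chosen with earlier results of these data known.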

Additional observations from a re-analysis of the deposited data

Results flagged for a closer look

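Reads on the strand opposite the Mir486 hairpin were above the limit of 3 counts in both libraries, with 27 in replicate 1 and 20 in replicate 2. They are the reads assigned to Mir3107, and the corresponding reads over Mir451a and Mir144 numbered 0 in each library. A group of 2 libraries is too small for a check of single samples that stand apart.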

How the results depend on the processing

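The call of Mir144 as lower in replicate 2 held under both other scalings, without a count minimum and in the counts without regard to strand, with log2 ratios from -0.98 to -0.56. Pseudocounts of 0.1 and 10 CPM gave -0.87 and -0.78 and cannot alter a call made on counts. In edgeR's exact test, whose variation comes from the same 2 libraries, it was not called (-0.57). Mir486 kept its direction but lost its call with TMM (-0.16), DESeq2 scaling (-0.20) and edgeR's exact test (-0.17). Mir451a became called as higher with TMM (0.30) and DESeq2 scaling (0.27), since both raise replicate 2. Over all genes, edgeR's exact test called 2 genes, Mir9-3 and Mir26a-1, and 23 genes had an unadjusted p under 0.05, beside 251 with Fisher's exact test. The other settings called 237 to 241. With TMM scaling 135 were higher and 106 lower, and with DESeq2 scaling 130 and 111, beside 90 and 161.

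Taking all reads as the denominator, the members' share was 0.0190%, and Mir451a, Mir144 and Mir486 had 99.0, 38.6 and 52.2 CPM. Without the 10 most abundant genes the share was 0.109%. Without regard to strand it was 0.0119%, with Mir451a and Mir486 at 0 CPM, because their reads are ambiguous there. Per hairpin base, the log2 ratio of Mir451a to Mir486 was 1.78 and that of Mir486 to Mir144 turned to -0.47, by the longer Mir486 hairpin. With reads lost from Mir486, the former is an upper limit and the latter a lower limit. Leaving out either replicate gives the other library's own level, share or ratio, which with 2 libraries lies within 1 SD of the mean by construction. The ratio between the libraries cannot be had from a single library. No paired analysis was possible because there is a single group.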

Other observations

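One other mature miRNA of the RefSeq table has bases 2 to 7 of miR-144-3p, the core of the seed, here in capitals.
miR-144-3p (Mir144, chr11:78073047-78073066, plus strand): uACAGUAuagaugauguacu
miR-101a-3p (Mir101a, chr4:101346957-101346977, minus strand): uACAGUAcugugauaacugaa
By uniquely assigned reads, Mir101a had 129 and 111 counts, or 30.7 and 29.2 CPM in replicates 1 and 2. That was about 26% and 46% of the level of Mir144. The log2 ratio of Mir101a between the libraries was -0.07 and was not called (adjusted p = 0.784, Fisher's exact test). It was chosen by its sequence after the levels had been computed. Its relative Mir101b holds the same 6 bases one position later in miR-101b-3p. Mir101b had 930 and 620 counts, or 222 and 163 CPM, which was 190% and 256% of the level of Mir144. Its log2 ratio was -0.44 and it was called as lower in replicate 2 (adjusted p = 7.69e-09, Fisher's exact test). Mir101c had 0 counts in both libraries. The mature sequence of miR-101c lies wholly within that of miR-101a-3p, and reads that match several places are kept out of the counts. Shared windows were not looked at for these hairpins, and the loss of such reads was not tested. The levels of Mir101a and Mir101c are therefore uncertain, and the 0 for Mir101c does not show that it is absent. The counts say nothing of targets.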
